A study of Mus musculus with 19 samples.

Results

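The Cyp4a family described here consists of 6 fatty acid hydroxylase genes, Cyp4a10, Cyp4a12a, Cyp4a12b, Cyp4a14, Cyp4a31 and Cyp4a32, out of 24537 genes in the count table. The members were taken by the symbol that the table's annotation gives each gene, and all 6 passed the filter on low counts. The table also lists Cyp4a29 and Cyp4a30b, which had 0.5 counts or fewer in every library and are not members. CYP4A enzymes place a hydroxyl group on the terminal, omega carbon of fatty acids, the first step towards dicarboxylic acids that peroxisomes shorten further, and they also act on arachidonic acid. Cyp4a10 and Cyp4a14 are classical target genes of the fatty acid receptor PPARα and are induced by fasting and fibrate drugs, whereas Cyp4a12a and Cyp4a12b are the male-predominant members in mouse liver and kidney and depend on androgen and growth hormone signals. Cyp4a31 and Cyp4a32 are close relatives of Cyp4a10 with less studied substrates.

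Polyadenylated RNA was sequenced from hepatocytes of 19 wild-type male C57BL/6J mice, of which 10 were 5 months old and 9 were 24 months old. No genotype other than wild type and no treatment is named for either age, so the groups differ by age alone in the labels. Mice of both ages were killed on each of a pair of days, with 5 young and 5 old mice on the first and 5 young and 4 old mice on the second. Each library is labelled as a separate mouse, and mice are called here by their library number. The question that the labels set is how hepatocyte RNA differs between the ages.

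The members lie on chromosome 4 of the mm10 build within 323.3 kb, in this order: Cyp4a12a (chr4:115299046-115332815, plus strand), Cyp4a12b (chr4:115411624-115439034, plus), Cyp4a14 (chr4:115486200-115496141, minus), Cyp4a10 (chr4:115518287-115533649, plus), Cyp4a31 (chr4:115563649-115579015, plus) and Cyp4a32 (chr4:115600938-115622366, plus). Cyp4a14 is the only member on the minus strand. Each row counts reads in the exons of a RefSeq transcript, with lengths from 1899 bases for Cyp4a32 to 2495 bases for Cyp4a31. The 60 coding bases around the signature of the haem-binding site, where a cysteine holds the iron that carries out the reaction, are printed to show how close the members are to each other. They come from the GENCODE M21 transcripts on GRCm38, read on the coding strand and spliced across the junction of exons 11 and 12, so the coordinates include the intron. Capitals mark bases that differ from Cyp4a12a.
Cyp4a12a, chr4:115328971-115331861: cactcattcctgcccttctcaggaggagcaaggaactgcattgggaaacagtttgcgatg
Cyp4a12b, chr4:115435225-115438084: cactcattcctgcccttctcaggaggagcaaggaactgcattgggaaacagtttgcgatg
Cyp4a10, chr4:115529487-115532558: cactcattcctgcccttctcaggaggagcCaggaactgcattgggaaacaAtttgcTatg
Cyp4a31, chr4:115574935-115577963: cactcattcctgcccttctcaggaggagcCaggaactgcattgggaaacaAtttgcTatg
Cyp4a32, chr4:115614865-115621461: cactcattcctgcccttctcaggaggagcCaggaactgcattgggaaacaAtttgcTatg
Cyp4a14, chr4:115487284-115489820: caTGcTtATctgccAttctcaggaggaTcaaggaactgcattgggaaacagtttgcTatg
The stretch falls into 3 forms: Cyp4a12a and Cyp4a12b are identical in it, Cyp4a10, Cyp4a31 and Cyp4a32 share the same 3 differences, and Cyp4a14 has 8.

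Over the whole coding sequence, Cyp4a12a and Cyp4a12b were 98.5% identical, with 23 differing bases of 1524, and Cyp4a10 was 97.2% identical to Cyp4a32 and 96.6% to Cyp4a31. Cyp4a14 shared 75.7 to 76.4% with the others. The 60 bases where Cyp4a12a and Cyp4a12b differ most, coding bases 624 to 683 in exons 5 and 6, are shown because reads from such stretches are what separates these genes, with capitals at the 4 bases that differ.
Cyp4a12a, chr4:115326309-115326681: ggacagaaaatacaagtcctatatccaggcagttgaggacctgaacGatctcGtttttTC
Cyp4a12b, chr4:115432561-115432934: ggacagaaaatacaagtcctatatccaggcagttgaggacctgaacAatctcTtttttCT
Of all stretches of 100 bases, the length of each read of a pair, that the transcript of Cyp4a14 holds, 100% occur in no transcript of another GENCODE gene. The share was 91.8% for Cyp4a31, 87.3% for Cyp4a10, 79.9% for Cyp4a32, 64.2% for Cyp4a12a and 63.8% for Cyp4a12b. For Cyp4a32 it covers a GENCODE transcript of 1530 bases, shorter than the 1899 bases of its count row. Cyp4a12a and Cyp4a12b hold 832 such stretches in common, and Cyp4a10 and Cyp4a14 hold 0. How reads from shared stretches were counted is not given in the sources used here, so the split between Cyp4a12a and Cyp4a12b, and between Cyp4a10, Cyp4a31 and Cyp4a32, is uncertain to that extent.

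The libraries held 17381439 to 20287628 counts in genes, and levels are given as CPM, the usual unit of counts relative to library totals, here scaled by TMM factors, or as CPM per kilobase of transcript where genes are compared with each other. With all mice, 3785 of 12269 genes tested differed by age at an adjusted p under 0.05 in edgeR's quasi-likelihood test with cull day as a term. The young mice 1184, 1186 and 1188, all of the first cull day, stood apart in acute-phase genes: Saa1, a serum amyloid A of the acute-phase response, was at 5109, 8275 and 3185 CPM in them, at 15.8 to 33.9 CPM in the other 7 young mice and at 32.3 to 595 CPM in the old mice. The results on Cyp4a genes are therefore given with and without these 3 mice. The hepatocyte marker Alb was at 61126 to 62572 CPM in 1184, 1186 and 1188, at 102944 to 116229 CPM in the other 7 young mice and at 93147 to 157362 CPM in old mice, with a log2 fold change of 0.47 (edgeR adjusted p = 0.0262), or 0.23 without the 3 (0.167). Of the 13 hepatocyte genes tested, 2 were higher and 4 lower in old mice, beside 16.3% and 14.5% of all genes, with a median log2 fold change of -0.22. Without the 3 young mice 1 was higher and 2 lower, beside 14.6% and 12.5% of all genes, with a median of -0.24. Markers of other liver cells moved with age as well: 13 of 13 tested stellate cell genes, 13 of 14 macrophage genes and 10 of 14 endothelial genes were higher in old mice, beside 16.3% of all genes. On the first cull day alone edgeR called 5, 0 and 0 of them higher, beside 1.88% of all genes, with 3 macrophage and 8 endothelial genes higher at an unadjusted p under 0.05. Their summed levels were 60.7 to 174 CPM in young and 176 to 640.2 CPM in old mice for stellate cells, 107 to 524 and 69.5 to 3372 CPM for macrophages, and 204 to 370.3 and 219 to 699 CPM for endothelial cells. In bulk RNA, fewer hepatocytes and less RNA of a gene in each hepatocyte cannot be told apart, and the part of these markers in the results on Cyp4a genes was not tested.

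With all mice, the male-predominant Cyp4a12a and Cyp4a12b fell with age and the other 4 members did not pass the test. That is 2 of 6 members, both lower, beside 30.9% of all genes called in either direction and 14.5% called lower. Without the 3 young mice, Cyp4a10 also fell, which makes 3 of 6 members lower, beside 27.2% of all genes called and 12.5% called lower. The median log2 fold change of the 6 members, 24 against 5 months, was -0.38 with all mice and -0.997 without the 3, beside -0.0034 and -0.0082 over all genes tested. It was 0.58 on the first cull day alone and -1.43 on the second, beside 0.011 and -0.013 over all genes tested.

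**Figure D1:**
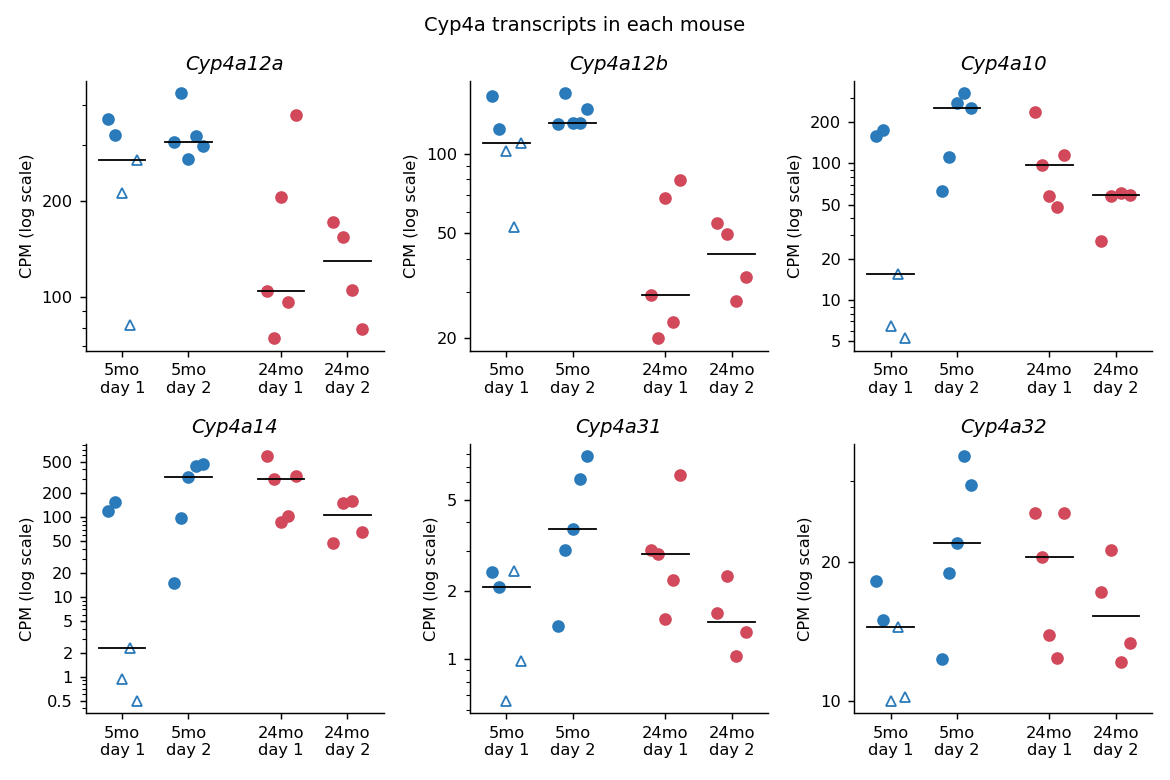
Level of each Cyp4a gene in every mouse, in CPM on a log scale, for the 4 groups of age and cull day; points are mice, the line is the group's median, and open triangles are the young mice 1184, 1186 and 1188. Cyp4a12b of the old mice lies at 19.9 to 79.8 CPM, below every young mouse except 1186, while Cyp4a14 spans 0.493 to 465.95 CPM among the young mice.

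Cyp4a12b had the clearest age difference of the family. In young mice of the first cull day it was at 166 CPM in mouse 1180, 124 in 1182, 102 in 1184, 52.7 in 1186 and 110.1 in 1188. Young mice of the second day had 129.8, 169.7, 131, 131 and 147 CPM. In old mice it was at 29.0, 19.9, 68.3, 22.9 and 79.8 CPM on the first day and at 54.7, 49.5, 27.5 and 34.2 CPM on the second. All 9 old mice were thus below 9 of the 10 young mice, and mouse 1186 alone fell into the old range. The mean was 126 CPM ± 33.7 (SD, n = 10) in young and 42.9 CPM ± 21.3 (SD, n = 9) in old mice. The log2 fold change was -1.54 (SE 0.261, edgeR adjusted p = 0.000449), a level 2.91-fold lower in old mice. Without the 3 young mice the ages did not overlap, which held for 1.85% of all genes in that direction, and the log2 fold change was -1.75 (SE 0.268, edgeR adjusted p = 0.000694).

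Cyp4a12a, the most abundant member per length in young mice, moved the same way by a smaller amount. Young mice had 361, 322, 211, 81.6 and 268 CPM on the first cull day, in the order 1180, 1182, 1184, 1186 and 1188, and 306, 435, 270.2, 320.2 and 298 CPM on the second. Old mice had 104, 73.9, 206, 96.3 and 372 CPM on the first day and 171, 154, 105 and 79.1 CPM on the second. Old mouse 1189 was above 9 of the 10 young mice and young mouse 1186 was among the lowest, so the ages overlapped, but 8 of 9 old mice were below all of the other 7 young mice. The mean was 287 CPM ± 93.6 (SD, n = 10) in young mice, 330.4 CPM ± 53.7 (SD, n = 7) without the 3, and 151 CPM ± 94.0 (SD, n = 9) in old mice. The log2 fold change was -0.92 (SE 0.308, edgeR adjusted p = 0.0292), or 1.90-fold lower in old mice. It was -1.22 without the 3 young mice (SE 0.296, edgeR adjusted p = 0.00866), or 2.33-fold lower. With all mice, the call rested on single libraries: edgeR's adjusted p rose to 0.0583, 0.0606 and 0.0568 without old mouse 1240, old mouse 1242 or young mouse 1180.

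The level of Cyp4a12a relative to Cyp4a12b shifted with age. Per kilobase, Cyp4a12a stood at 1.53 to 2.57 times the level of Cyp4a12b in young mice, with a median of 2.24, and at 2.29 to 4.61 times in old mice, with a median of 3.54. In 8 of 9 old mice the ratio was above that of every young mouse, with old mouse 1242 at 2.29 as the exception. The difference in age effect between these genes was 0.61 on the log2 scale of CPM plus 0.5 (exact two-sided permutation of age within cull days, p = 0.000189, adjusted over 15 pairs of members 0.00142). Cyp4a12b thus fell more than Cyp4a12a, and without the 3 young mice the difference was 0.53 (adjusted p = 0.00756 by the same exact permutation test). Both values carry the uncertainty of the reads that these near-identical transcripts share.

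**Figure D2:**
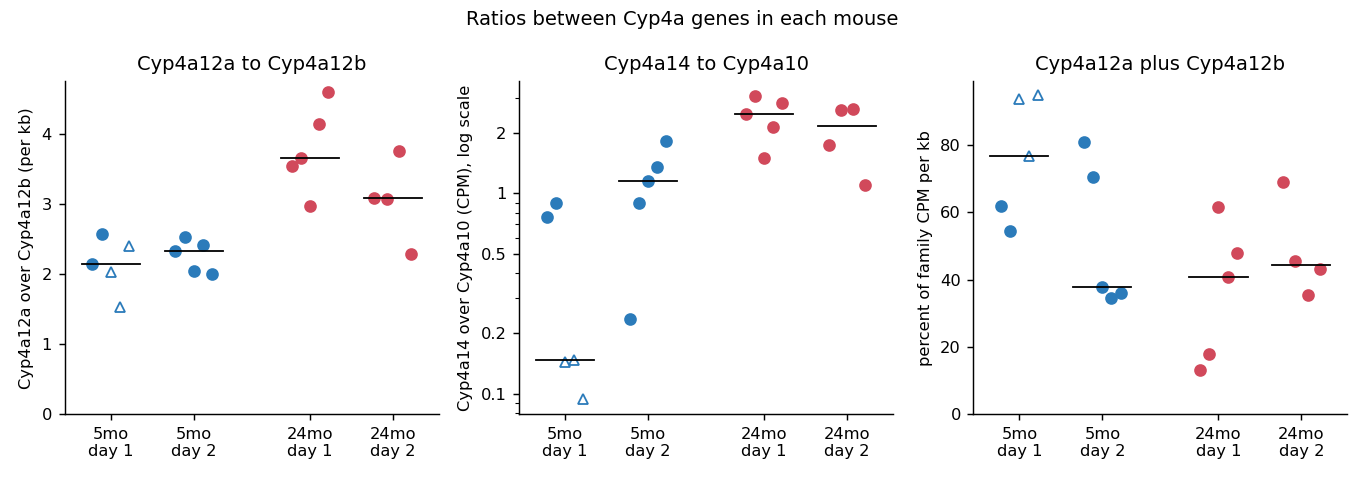
Make-up of the Cyp4a family in every mouse: Cyp4a12a over Cyp4a12b per kilobase, Cyp4a14 over Cyp4a10 in CPM on a log scale, and the percent of the family's summed CPM per kilobase held by Cyp4a12a and Cyp4a12b; points are mice by age and cull day, lines are group medians and open triangles are young mice 1184, 1186 and 1188. The first ratio reaches 2.57 in young mice and 4.61 in old mice, and the second ratio is 1.101 or higher in every old mouse.

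The PPARα targets Cyp4a10 and Cyp4a14 varied more among young mice than Cyp4a12a and Cyp4a12b did. Cyp4a14 in young mice was at 122 CPM in 1180, 157 in 1182, 0.929 in 1184, 2.28 in 1186 and 0.493 in 1188 on the first cull day, and at 14.8, 99.3, 320.2, 442 and 465.95 CPM in 1235, 1237, 1239, 1243 and 1244 on the second. The highest young level was 945-fold the lowest. The lowest values rest on few reads, with 17, 41 and 9 counts in 1184, 1186 and 1188. Old mice had 588, 300.4, 87.3, 103 and 328 CPM on the first day and 47.5, 151, 161 and 64.9 CPM on the second. The old mice therefore lay inside the young range, except 1181 at 588 CPM, which was above every young mouse. The mean was 162 CPM ± 183 (SD, n = 10) in young and 203 CPM ± 175 (SD, n = 9) in old mice. The log2 fold change of 0.70 had an SE of 1.08 and did not pass the test (edgeR adjusted p = 0.653), and it turned to -0.54 without the 3 young mice (SE 0.716, edgeR adjusted p = 0.606).

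Cyp4a10 was likewise lowest of all mice in 1184, 1186 and 1188. Young mice had 159, 174, 6.45, 15.5 and 5.26 CPM on the first day and 62.8, 111, 277, 325 and 256 CPM on the second. Old mice had 237, 98.1, 58.0, 47.6 and 116 CPM on the first day and 27.3, 57.9, 61.0 and 59.0 CPM on the second, so that all 9 lay inside the young range. Of the old mice, 6 of 9 were below all 7 young mice that remain without the 3. The mean was 139 CPM ± 118 (SD, n = 10) in young mice, 195 CPM ± 94.4 (SD, n = 7) without the 3, and 84.6 CPM ± 62.8 (SD, n = 9) in old mice. The log2 fold change was -0.56 with all mice (SE 0.701, edgeR adjusted p = 0.568) and -1.49 without the 3 (SE 0.433, edgeR adjusted p = 0.0215), the latter a 2.81-fold lower level in old mice.

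Cyp4a14 and Cyp4a10 differed in their response to age although they varied together. The age effect of Cyp4a10 minus that of Cyp4a14 was -1.93 on the log2 scale, and the mean log2 ratio of Cyp4a10 to Cyp4a14 was 0.86 in young and -1.09 in old mice (exact two-sided permutation test within cull days, p = 0.000535, adjusted over 15 pairs 0.00268). In CPM, Cyp4a14 was at 0.0938 to 1.82 times Cyp4a10 in young mice and at 1.101 to 3.06 times in old mice, and in 6 of 9 old mice it exceeded every young value. Without the 3 young mice the ratio began at 0.236 in young mice, and the adjusted p of the difference was 0.00992 by the same exact permutation test. The old mice therefore held more Cyp4a14 for a given level of Cyp4a10, a shift that neither gene's own level showed when all mice were compared.

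**Figure D3:**
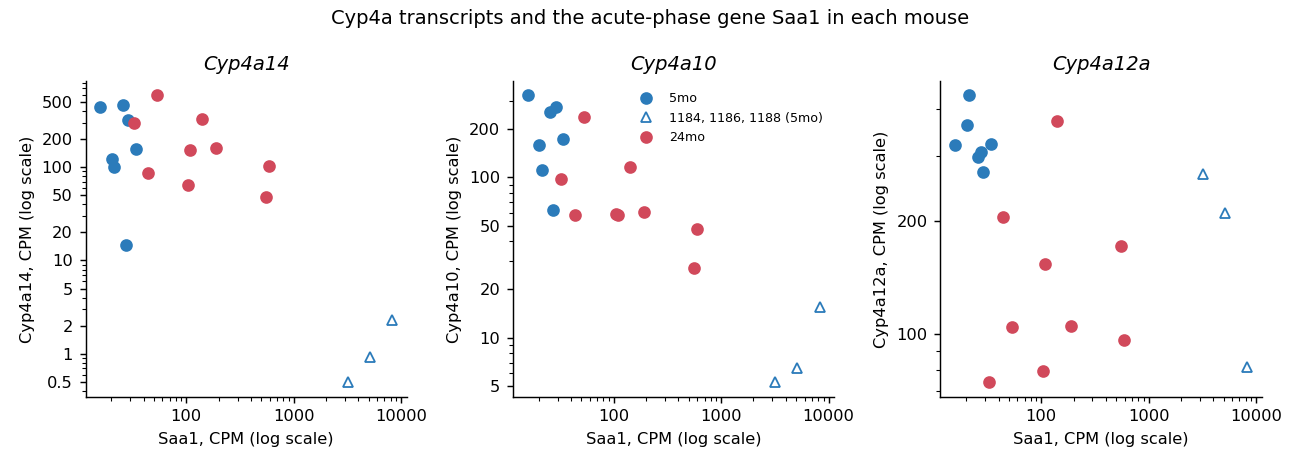
Level of Cyp4a14, Cyp4a10 and Cyp4a12a in each mouse against Saa1, an acute-phase gene, both in CPM on log scales, with filled points coloured by age and open triangles for young mice 1184, 1186 and 1188. These 3 mice have 3185 to 8275 CPM of Saa1 and the lowest Cyp4a14 and Cyp4a10 of all mice, while for Cyp4a12a they lie at 211 CPM (1184), 81.6 CPM (1186) and 268 CPM (1188), inside the range of the old mice.

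The 3 mice lowest in Cyp4a14 and Cyp4a10 were the 3 highest in Saa1, but low Cyp4a14 was also seen without high Saa1: young mouse 1235 had 14.8 CPM of Cyp4a14, below every old mouse, and 27.3 CPM of Saa1. The summed level of the 22 acute-phase genes tested was 22398 to 28367 CPM in 7 young mice, 73994 to 122330 CPM in 1184, 1186 and 1188, and 28885 to 86589 CPM in old mice. Of these genes edgeR called 0 with all mice (2 at an unadjusted p under 0.05, and 1 each by DESeq2 and limma-voom). Without the 3 young mice, 19 of 22 were called higher in old mice, beside 14.6% of all genes. These 3 mice were set apart by acute-phase genes, so no result is read from the count without them. The old mice highest in Saa1 were 1187 at 595 CPM and 1236 at 558 CPM. Cyp4a14 was at 103 CPM in 1187 and at 47.5 CPM in 1236, the lowest old value. Old mice 1242 and 1185 had less Cyp4a14 than 1187, at 64.9 and 87.3 CPM, with 105 and 44.0 CPM of Saa1. Cyp4a10 was also lowest among old mice in 1236, at 27.3 CPM. The part of the acute-phase response in these levels was not tested.

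Cyp4a32 and Cyp4a31, the relatives of Cyp4a10, were the less abundant members. Cyp4a32 ranged from 10 to 33.9 CPM in young mice and from 12.1 to 25.5 CPM in old mice. Its mean was 18.4 CPM ± 7.99 (SD, n = 10) in young and 18.0 CPM ± 5.41 (SD, n = 9) in old mice, and the age difference of 0.03 on the log2 scale (SE 0.227, edgeR adjusted p = 0.943) was -0.25 without the 3 young mice (SE 0.238, edgeR adjusted p = 0.459). Cyp4a31 ranged from 0.656 to 7.84 CPM in young and from 1.03 to 6.46 CPM in old mice, at -0.20 on the log2 scale between the ages (SE 0.451, edgeR adjusted p = 0.758), or -0.77 without the 3 (SE 0.459, edgeR adjusted p = 0.220). Neither gene passed the test by age, and the ages overlapped in both. Among young mice, 1243 and 1244 were highest for both, as they were for Cyp4a14.

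Per kilobase of transcript, the order of mean levels in young mice was Cyp4a12a at 119 CPM, Cyp4a10 at 67.2, Cyp4a14 at 65.5, Cyp4a12b at 53.1, Cyp4a32 at 9.71 and Cyp4a31 at 1.23. Leaving out 1184, 1186 and 1188 gave 137, 94.1, 93.3, 59.9, 11.3 and 1.53 in the same order. In old mice it was Cyp4a14 at 81.9, Cyp4a12a at 62.8, Cyp4a10 at 40.8, Cyp4a12b at 18.0, Cyp4a32 at 9.47 and Cyp4a31 at 0.997. The ranges over mice of Cyp4a12a, Cyp4a10, Cyp4a14 and Cyp4a12b overlapped at both ages. On the second cull day Cyp4a12a had a higher mean than Cyp4a14 at both ages, with 135 against 108 CPM per kilobase in young and 52.9 against 42.7 in old mice. On the first day the means were 103 against 22.7 in young and 70.7 against 113 in old mice. Together, Cyp4a12a and Cyp4a12b held 34.6 to 94.9% of the family's summed level per kilobase in young mice, with a median of 66.2%, and 13.2 to 69.1% in old mice, with a median of 43.1%. Cyp4a14 held a median of 12.5% in young and 33.7% in old mice. Without the 3 young mice, the young medians were 54.4% for Cyp4a12a with Cyp4a12b and 18.5% for Cyp4a14. Within the second cull day these shifts were not seen: the median of Cyp4a12a with Cyp4a12b was 37.7% in young and 44.4% in old mice, and that of Cyp4a14 was 29.2% in young and 28.4% in old mice. The summed level of the family was 73.0 to 544 CPM per kilobase in young mice, with a median of 349, and 109 to 421 in old mice, with a median of 185. The median was 166 in young and 219 in old mice on the first cull day and 443 in young and 146 in old mice on the second. The 3 young mice set the first of these values, at 139.6, 73.0 and 166 in mice 1184, 1186 and 1188 against 356 and 342 in 1180 and 1182.

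Spread among young mice differed between the members as well. Among the 10 young mice the coefficient of variation in CPM was 113% for Cyp4a14 and 85.1% for Cyp4a10, but 32.6% for Cyp4a12a and 26.7% for Cyp4a12b. Leaving out the 3 young mice gave 76.7%, 48.5%, 16.2% and 13.1%. The less abundant Cyp4a31 and Cyp4a32 had 74.8% and 43.3%, or 61.8% and 36.2% without the 3. In old mice Cyp4a12a reached 62.1% and Cyp4a12b 49.6%, above their young values, and Cyp4a14 had 85.9% and Cyp4a10 74.3%. In old mice the values of Cyp4a12a and Cyp4a10 rest on single animals. Cyp4a12a had 38.5% without mouse 1189, and Cyp4a10 had 42.9% without mouse 1181. Whichever old mouse was left out, Cyp4a12b had 45.1 to 53.7% and Cyp4a14 had 68.0 to 95.9%. Cyp4a14 thus stayed above Cyp4a12a and Cyp4a12b, while Cyp4a10, Cyp4a12a and Cyp4a12b are not ordered by spread at that age.

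Whether the members responded differently was tested on all 15 pairs by exact permutation of age within cull days, over 31752 relabellings. The age effects of 7 pairs differed at an adjusted p under 0.05. Besides Cyp4a12a with Cyp4a12b and Cyp4a10 with Cyp4a14, the pairs were Cyp4a12b with Cyp4a32, where the effect on the first minus that on the other was -1.64 on the log2 scale (exact permutation, adjusted p = 0.00142), Cyp4a12b with Cyp4a31 at -1.44 (0.0111), Cyp4a12b with Cyp4a14 at -3.53 (0.0202), Cyp4a12a with Cyp4a32 at -1.03 (0.0224), and Cyp4a12a with Cyp4a14 at -2.91 (0.0397). With the 3 young mice left out, 6 pairs differed, of which 5 were among the 7. The pairs of Cyp4a14 with Cyp4a12a and with Cyp4a12b were lost, with adjusted p of 0.235 and 0.0985 by the same exact permutation test, and Cyp4a10 with Cyp4a32 was added at 0.00756.

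The age effects were also read on each cull day alone. On the second day alone, 4 of 6 members were lower in old mice, beside 7.14% of all genes called lower: Cyp4a10 stood at -1.998 on the log2 scale (SE 0.426, edgeR adjusted p = 0.00701), Cyp4a12a -1.35 (0.00181), Cyp4a12b -1.77 (0.000345) and Cyp4a31 -1.497 (0.0286). Cyp4a14 had -1.33 (0.227) and Cyp4a32 -0.54 (0.169). On the first day alone, 0 of 6 members were called by edgeR (1 at an unadjusted p under 0.05), beside 3.67% of all genes, 1.88% higher and 1.79% lower. There Cyp4a12b had -1.33 (edgeR adjusted p = 0.0954), Cyp4a12a -0.54 (0.497), Cyp4a10 0.63 (0.695) and Cyp4a14 2.32 (0.281). Cyp4a31 had 0.91 (0.225) and Cyp4a32 0.53 (0.190), opposite in sign to the second day. With the 3 young mice left out of the first day, young mice 1180 and 1182 remain. In that fit Cyp4a12b had -1.74, Cyp4a12a -1.03, Cyp4a10 -0.60, Cyp4a14 1.00, Cyp4a31 0.50 and Cyp4a32 0.22. There edgeR called 0.0% of 12742 genes, with 1820 at an unadjusted p under 0.05. Among the members 1 was under 0.05 unadjusted there.

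The difference between the days was tested directly as an interaction term in edgeR, and 0 of 12269 genes passed at an adjusted p under 0.05, while 6.51% had an unadjusted p under 0.05. Of the members, 4 of 6 had an unadjusted p under 0.05, each with a lower age effect on the second day: the effect on the second day minus that on the first was -3.66 for Cyp4a14 on the log2 scale (p = 0.0408, edgeR), -2.64 for Cyp4a10 (0.0347), -2.404 for Cyp4a31 (0.00224) and -1.07 for Cyp4a32 (0.0125). Their adjusted p ran from 0.639 to 0.751. For Cyp4a12a and Cyp4a12b the differences were -0.81 and -0.44, with unadjusted p of 0.185 and 0.400 in edgeR. Without the 3 young mice, Cyp4a31 alone of the members kept an unadjusted p under 0.05 in edgeR, at 0.0178.

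**Figure D4:**
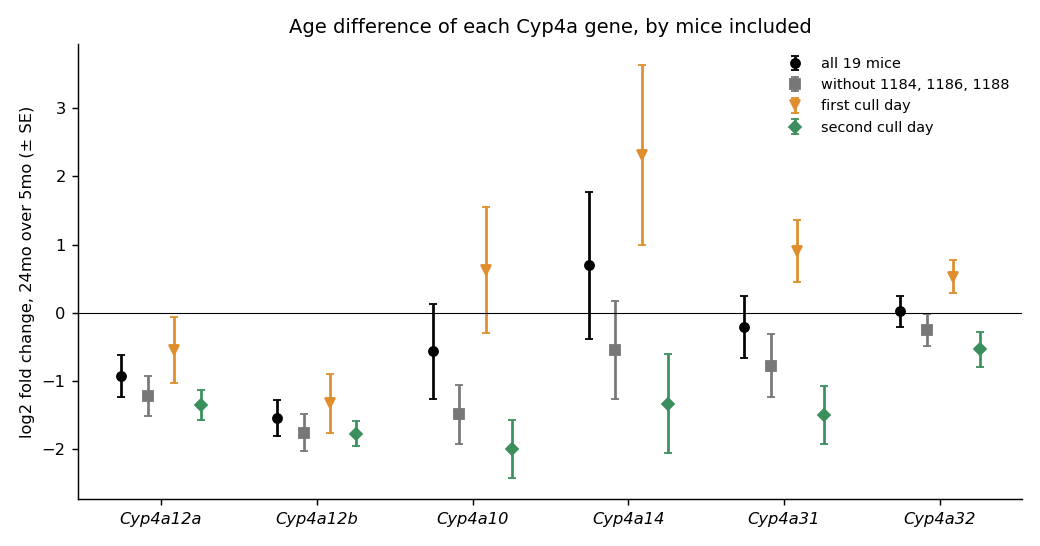
Log2 fold change of each Cyp4a gene, 24 against 5 months, from edgeR with its standard error, for all 19 mice, without young mice 1184, 1186 and 1188, and for each cull day alone. Cyp4a12a and Cyp4a12b lie below 0 in all 4 fits, while Cyp4a14 runs from 2.32 on the first day to -1.33 on the second.

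Variation among mice of the same age and day set Cyp4a12a and Cyp4a12b apart from the other members. After the mean of each age and cull day was removed, log2 CPM of Cyp4a10 and Cyp4a14 had a Pearson correlation of 0.98 over 19 mice (0.92 without the 3 young mice), although no stretch of 100 bases is common to their transcripts. Cyp4a12a and Cyp4a12b had 0.94 (0.93) and Cyp4a31 and Cyp4a32 had 0.90 (0.90). Cyp4a10 and Cyp4a12a had 0.18 (-0.17), and Cyp4a14 and Cyp4a12b had 0.19 (-0.12). Cyp4a12a and Cyp4a12b had 0.15 to 0.21 (0.22 to 0.29) with Cyp4a31 and Cyp4a32. Cyp4a10 and Cyp4a14 had 0.62 to 0.70 (0.64 to 0.80) with Cyp4a31 and Cyp4a32. The points share their library and its depth, and members with stretches in common, Cyp4a12a with Cyp4a12b and Cyp4a10, Cyp4a31 and Cyp4a32 with each other, may also share reads.

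The genes outside the family that varied most like Cyp4a14 on this measure over 19 mice were Abcd2, a peroxisomal transporter of very long-chain fatty acids, at 0.97 (0.97 without the 3 young mice), Dcun1d4 at 0.90 (0.72), the acyl-CoA thioesterase gene Acot2 at 0.90 (0.80) and the peroxisomal import gene Pex13 at 0.90 (0.73). For Cyp4a10 they included Abcd2 at 0.95 (0.88), Cept1, an enzyme of phospholipid synthesis, at 0.92 (0.85), and Dcun1d4 at 0.91 (0.74). For Cyp4a12a the 5 genes were Bcas3 at 0.88 (0.88), Mtpn at 0.81 (0.75), the sialic acid transporter gene Slc17a5 at 0.78 (0.69), Casc4 at 0.77 (0.83) and the G protein gene Gnai3 at 0.77 (0.72). Abcd2 rose with age, and its age effect was not tested against those of Cyp4a14 and Cyp4a10. It was at 2.51 to 31.95 CPM in young mice with a median of 21.3, and at 31.8 to 74.9 CPM in old mice with a median of 43.4. Its log2 fold change was 1.49 (SE 0.443, edgeR adjusted p = 0.0168), or 0.88 without the 3 (SE 0.217, edgeR adjusted p = 0.00973).

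The receptor that drives Cyp4a10 and Cyp4a14, PPARα, fell slightly. Ppara was at 128 to 301 CPM in young mice, with a median of 185, and at 101 to 242 CPM in old mice, with a median of 124, so the ages overlapped. In 1184, 1186 and 1188 it was at 141, 162 and 236 CPM, within the range of the other young mice. The part of Ppara in the levels of Cyp4a14 and Cyp4a10 was not tested. The log2 fold change was -0.47 (SE 0.161, edgeR adjusted p = 0.0348), and -0.62 without the 3 (SE 0.164, edgeR adjusted p = 0.0142). The call with all mice was lost when any of 10 of the 19 mice was left out. Of the 18 genes tested among PPARα and its partners, 2 rose and 6 fell with all mice, beside 16.3% of all genes higher and 14.5% lower, with a median of -0.26. The genes that fell besides Ppara were Rxra (-0.27), its partner in DNA binding, the coactivators Ncoa1 (-0.42), Ncoa2 (-0.36) and Med1 (-0.39), and Hnf4a (-0.30), a master regulator of hepatocyte genes. Ppard (0.54) and Rxrg (0.47) rose. When the 3 young mice were left out, 1 rose, Ppard, and 2 fell, Ppara and Ncoa1. On the first cull day alone 0 fell and on the second 4, beside 1.79% and 7.14% of all genes.

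The other target genes of PPARα were called lower far more often without the 3 young mice. Of 40 tested, 1 rose and 4 fell with all mice, beside 16.3% of all genes called higher and 14.5% called lower, with a median log2 fold change of -0.17. Without the 3, 22 fell, beside 12.5% of all genes, with a median of -0.35. For 27 of the 40 genes, each of 1184, 1186 and 1188 lay below every other young mouse. Leaving these mice out raises the young level of such genes, so the larger count depends on that choice. The 4 genes that fell were among the 22. They included Cpt2, of mitochondrial fatty acid import, at -0.47 (SE 0.102), the monoglyceride lipase gene Mgll at -0.57 (0.127) and Creb3l3, a transcription factor of lipid metabolism, at -0.26 (0.0783). Pdk4, a kinase that restrains pyruvate oxidation, rose by 1.17 (SE 0.321, edgeR adjusted p = 0.0112), against 0.74 without the 3 (edgeR adjusted p = 0.0639). Acot1, Acaa1b and Fabp1, named here after their values were seen, had log2 fold changes of -1.495, -1.15 and -0.56 without the 3 (edgeR adjusted p of 0.00770, 0.00317 and 0.0260), and did not pass with all mice. Acaa1b missed narrowly there (edgeR adjusted p = 0.0505) and passed under 7 of 10 other settings and in 6 of 19 fits with a single mouse left out. The acyl-CoA thioesterase gene Acot1 was at 0.891 to 56.2 CPM in young and at 5.16 to 20.1 CPM in old mice. Its wide spread in young mice was like that of Cyp4a10, with 0.891 to 2.73 CPM in the 3 mice and 14.1 to 56.2 CPM in the other young mice.

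**Figure D5:**
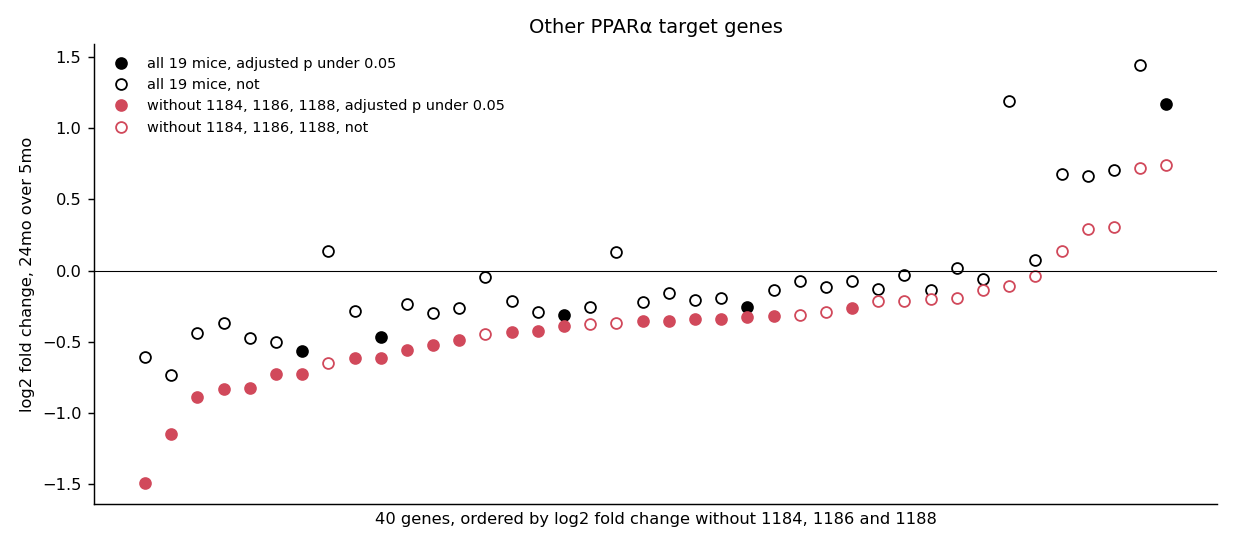
Log2 fold change, 24 against 5 months, of 40 PPARα target genes other than the Cyp4a members, with all 19 mice and without young mice 1184, 1186 and 1188, ordered along the horizontal axis by the latter value; filled points have an edgeR adjusted p under 0.05. With all mice 4 filled points lie below 0 and 1 above, and without the 3 mice 22 lie below 0. For 27 of the 40 genes each of these 3 mice had a lower level than every other young mouse.

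Genes of the route that takes up the products of omega-hydroxylation were lower in old mice in part. Of 27 tested, 1 rose and 10 fell with all mice, beside 16.3% of all genes called higher and 14.5% called lower, with a median of -0.27. Without the 3 young mice 1 rose and 16 fell, beside 14.6% and 12.5% of all genes, with a median of -0.36. On the first cull day alone 0 fell and on the second 15, beside 1.79% and 7.14% of all genes, with medians of -0.095 and -0.41. The list shares 9 genes with the PPARα targets. The peroxisomal enzymes Acox3 (-0.33, edgeR adjusted p = 0.00184) and Hsd17b4 (-0.36, 0.00304), the sterol carrier gene Scp2 (-0.37, 0.00359) and Ephx2 (-0.54, 0.00630), the soluble epoxide hydrolase that acts on arachidonic acid products, fell. Of 8 genes listed for electron supply and haem handling of P450 enzymes, Cyb5b alone fell with all mice, beside 14.5% of all genes, and 2 fell without the 3 young mice, beside 12.5%. Cyb5b fell by 0.37 (edgeR adjusted p = 0.0156), and it encodes the cytochrome b5 of the mitochondrial outer membrane. Por, the reductase that all microsomal P450 enzymes need, had a log2 fold change of -0.32 (edgeR adjusted p = 0.0811).

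Of the other CYP4 enzymes, 7 of 14 passed the filter, with 2 higher and 1 lower in old mice, beside 16.3% and 14.5% of all genes, and a median log2 fold change of 0.02. Cyp4b1 rose by 0.89 on the log2 scale (SE 0.217, edgeR adjusted p = 0.00583), Cyp4f16 by 1.09 (SE 0.375, edgeR adjusted p = 0.0342) while Cyp4v3 stood at -0.43 (SE 0.106, edgeR adjusted p = 0.00599). The same 3 were called without the 3 young mice. Cyp4f13, Cyp4f14, Cyp4f15 and Cyp4f17 lay between -0.0204 and 0.0271 and were not called. The call for Cyp4f16, at 0.826 to 5.57 CPM in young and 1.69 to 13.6 CPM in old mice, was lost without any of 7 of the 19 mice.

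Around the cluster, 26 other genes of the table lie within 500 kb of a member, and 13 of these were tested. Of them 3 rose, Pdzk1ip1 (log2 fold change 1.26), Tal1 (0.90) and Cyp4b1, and 1 fell, Cmpk1 (-0.17), beside 30.9% of all genes called. The call of Cmpk1 was lost when any of 10 of the 19 mice was left out, and Tal1 did not pass without the 3 young mice (0.77, edgeR adjusted p = 0.0737). Cyp4b1, at chr4:115624728-115647705 on the minus strand, ends next to the end of Cyp4a32 and moved opposite to Cyp4a12a and Cyp4a12b. Faah, a hydrolase of fatty acid amides in the same interval, had 0.07 and was not called.

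Of 19 other male-predominant liver genes tested, 12 fell with all mice and 13 without the 3 young mice, beside 14.5% and 12.5% of all genes, with a median log2 fold change of -0.79 in both fits. Examples were the glucuronosyltransferase genes Ugt2b1 (-0.90) and Ugt2b38 (-0.83) and the urinary protein genes Mup1 (-2.49) and Mup7 (-3.64), which belong to a family of near-identical copies whose reads may be split. Mup20 of that family was at 0.01 and Fitm1 at 0.27, both named after their values were seen, and neither passed the test (edgeR adjusted p of 0.964 and 0.462). Of 20 female-predominant genes 9 were tested, and 3 of these were called higher in old mice in both fits; no count is read from this, since genes at or near 0 in young mice passed the filter through the old mice alone. The transporter gene Slc22a26 was at 0 to 0.927 CPM in young and 1.51 to 10.4 CPM in old mice, and the receptor gene Ntrk2 at 0.224 to 1.64 and 2.11 to 16.2 CPM. Of 12 genes of the growth hormone axis, 1 was called with all mice, beside 30.9% of all genes: Igfbp3, which rose (2.54). Ghr, the growth hormone receptor gene, stood at -0.23 with all mice (edgeR adjusted p = 0.116) and fell in the fit without the 3, at -0.35 (edgeR adjusted p = 0.0303). Of 18 clock genes, 2 rose and 8 fell with all mice, beside 16.3% and 14.5% of all genes, and 1 rose and 9 fell without the 3. On the first cull day alone 0 clock genes fell and on the second 8, beside 1.79% and 7.14% of all genes. Time of day and its part in the levels of Cyp4a genes were not tested.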

How the data were processed

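RNA was measured in 19 libraries, 1 per mouse. Per the submitters' processing notes, STAR and HOMER were used with GRCm38 and mm10. The deposited table holds the authors' estimated counts per gene, in steps of 0.5, and 29.2% of values are not whole. How reads with several matches and strand were treated is not given in the sources used here. Library totals in the column headers were 21038999 to 23781337, and 78.3 to 86.5% of them lay in genes. This depth limits low genes, and p-values measure the spread between mice as labelled.

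Counts were rounded to whole numbers and fitted in R 4.3.3 with edgeR 4.0.16 (TMM scaling, filterByExpr with a count minimum of 10, glmQLFTest with age and cull day, Benjamini-Hochberg over 12269 genes, threshold 0.05). CPM used TMM-scaled totals in genes. Differences between members used exact permutation with a pseudocount of 0.5 CPM. Alternatives were RLE scaling, library totals, no filter, DESeq2 1.42.0, limma 3.58.1 (voom with weights for samples), a fit without cull day, either day by itself, leaving out young mice 1184, 1186 and 1188, and leaving out each mouse. Leaving out these 3 mice on the first day alone was added after seeing the data. The scripts were tested on simulated data. Members, lists and the mice left out were chosen with earlier results of these data known, so no pattern shown before is independent support. Named genes were all members, all tested genes of the lists of PPARα partners and other CYP4 enzymes, up to 4 with the smallest p from each other list, tested genes within 500 kb, and the 5 most alike to Cyp4a10, Cyp4a12a and Cyp4a14 with a mean of at least 1 CPM. Not every gene so chosen is named, and predicted genes are not. Sequences came from GENCODE M21 transcripts of GRCm38. Of 13 hepatocyte markers tested, 2 were higher and 4 lower in old mice, beside 16.3% and 14.5% of all genes. Of 2 cholangiocyte markers tested, 0 were called. Of 16 lymphocyte and neutrophil markers 3 were tested, and Jchain and Csf3r were called higher. No count is read from these, since both had young means under 0.5 CPM (0.489 and 0.463) and may have passed the filter through the old mice.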

Additional observations from a re-analysis of the deposited data

Results flagged for a closer look

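In each of 6 groups of mice (all young, all old, and each age on each cull day), the lowest and highest log2 CPM of the 6 members were set against the rest by Dixon's criterion, which chance passes in about 1 in 20 groups, and 3 values passed. Cyp4a10 in old mouse 1236, at 27.3 CPM, lay apart from the other 3 old mice of the second cull day, with a gap of 0.935 of the group's range. Cyp4a12a and Cyp4a12b were both lowest among the young mice in mouse 1186, at 81.6 and 52.7 CPM, with gaps of 0.568 and 0.567 of the range.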

How the results depend on the processing

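No paired analysis was possible because the library numbers in the labels are not shared between the ages. With all mice, 3785 genes and 2 members were called. These counts were 450 and 0 on the first cull day alone, 2388 and 4 on the second, 0 and 0 on the first without young mice 1184, 1186 and 1188, and 3014 to 3949 and 1 to 2 with each mouse left out in turn. The log2 fold change of Cyp4a12a was -0.54 on the first day alone and -1.03 there without the 3, neither passing, and -1.20 to -0.82 with single mice left out. Cyp4a12b had -1.33 and -1.74 under the first 2 of these settings, neither passing, and -1.72 to -1.45. Cyp4a10 turned to 0.63 on the first day, passed at -1.998 on the second day and at -1.49 without the 3, and ran from -0.88 to -0.32 with single mice left out. Cyp4a14 turned to -1.33 on the second day and -0.54 without the 3, and ran from 0.33 to 1.05. Cyp4a31 turned to 0.91 on the first day and 0.50 there without the 3, passed at -1.497 on the second, and ran from -0.49 to -0.01. Cyp4a32, near 0, turned to -0.0061 with no filter, -0.10 with limma-voom, -0.0371 with no cull day term, -0.54 on the second day and -0.25 without the 3, and ran from -0.0617 to 0.13. With limma-voom, Cyp4a10 had -0.077, Cyp4a14 1.80 and Cyp4a31 -0.61, none passing. Without the 3, the age effect of Cyp4a10 minus that of Cyp4a31 turned from 0.16 to -0.92. Of 40 PPARα targets, higher counts were 2 with DESeq2, 0 on either day, without the 3 and on the first day without the 3, and 1 to 3 with single mice left out. Lower counts were 0 on the first day, 25 on the second, 22 without the 3, 0 on the first day without the 3, and 3 to 8, with 8 without old mouse 1181 or young mouse 1186. Acot1 and Fabp1 turned to 0.67 and 0.15 on the first day. Scaling by library totals alone moved the share of calls that were higher from 53.0 to 64.2%, with a median log2 fold change of 0.041 against -0.0034. The cause of these changes was not tested, beyond the fewer mice in the fits of a single day.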
